A study of Mus musculus with 16 samples.

Results

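The hair keratins and keratin-associated proteins (KAPs) build the hair shaft and the sheaths that mould it. They were examined in ear skin of mice treated with imiquimod (IMQ), an agonist of Toll-like receptor 7 that induces psoriasis-like inflammation. Members were taken by symbol, namely Krt25 to Krt28, Krt31 to Krt36, Krt71 to Krt75, Krt79, Krt81 to Krt86 and every Krtap gene, which gave 79 of the 30943 genes named on the array. They were 7 hair shaft type I keratins, 6 hair shaft type II keratins, 8 inner root sheath keratins, Krt75 of the companion layer, Krt79 of the infundibulum and 56 KAP genes. In the RefSeq table of mouse genes 34 members lie on chromosome 11, 23 on chromosome 16, 11 on chromosome 15, 5 on chromosome 7, 3 on chromosome 10 and 1 on chromosome 1, and 2 symbols were not matched.

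Hair is made in cycles. In the growing phase, matrix cells at the base of the follicle differentiate into the concentric layers of the inner root sheath and the shaft. The hair keratins form paired type I and type II filaments there, and KAPs, rich in cysteine or in glycine and tyrosine, cross-link them. In the resting phase the shaft genes are silent, while the upper follicle, including the infundibulum that opens onto the skin surface, persists.

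Ears came from wild-type mice and from miR-146a-/- (B6/Mir-146a-/-) knockout mice, both on the C57BL/6J background and aged 8 to 11 weeks. Each genotype had 4 ears given a vehicle control and 4 ears given IMQ as 31.25 mg of Aldara cream, which holds 5% IMQ, on each of 3 days, and ears were collected on day 4. The knockout is not described as restricted to a cell type, and miR-146a is a microRNA that restrains NF-kB signalling. IMQ went on the right ear, and which ear or mouse each vehicle sample came from is not stated, nor whether the ears of a group came from different mice. The p-values therefore reflect only how much these samples varied, which may be technical. Values are deposited log2 intensities of whole ear, so fewer cells of a type and less RNA per cell cannot be told apart.

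The arrays were alike in scale, with medians between 3.21 and 3.28 on the log2 scale and a mean correlation between arrays of a group of 0.964 to 0.974. The arrays held epidermis and deeper ear tissue, since all 11 interfollicular epidermis markers and all 16 skeletal muscle markers lay above the array median on all 16 arrays, as did 7 of 11 cartilage markers. The miR-146a gene (symbol Mir146) read 1.62 to 2.16 in wild-type vehicle, 1.78 to 2.07 in wild-type IMQ, 1.78 to 1.83 in knockout vehicle and 1.73 to 1.93 in knockout IMQ ears. Such low readings in all 4 groups cannot test the genotype labels. Knockout vehicle ears differed most among themselves: the mean of 4 stress keratins spanned 6.28 to 9.63 there and 9.81 to 10.4 in wild-type vehicle ears.

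Most hair shaft genes gave no signal above the middle of the array in any ear. Of the 79 members, 45 stayed at or below the array median on all 16 arrays, 16 exceeded it on 1 to 3 arrays and 18 exceeded it on 4 or more. Across all genes 53.0% exceeded it on at least 4 arrays. The members' median level was 2.61 on the log2 scale, the 28.7th percentile of genes, where the lower quartile of the arrays was 2.50 to 2.60. A value near the floor shows neither that a transcript was absent nor that it did not change, because background compresses differences there. Probe sets differ in affinity and the values are not per length, so the means and percentiles given below say how bright each probe set was, and not which gene had more transcript.

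**Figure D1:**
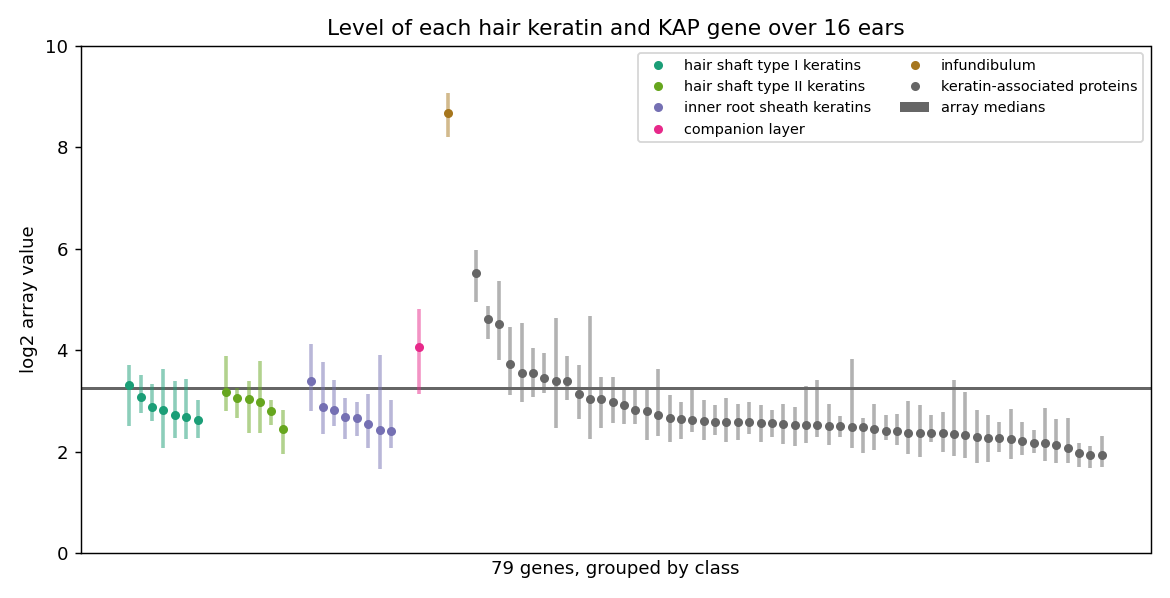
Level of each of the 79 genes on the log2 scale, with a dot for the mean over 16 ears and a line from the lowest to the highest ear. Classes are set side by side and the dark band marks the array medians (3.21 to 3.28); the gene of the infundibulum class lies at 8.68 and most others lie at or below the band.

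The shaft keratins were dim throughout. None of the 13 type I and type II shaft keratins exceeded the array median on all 16 arrays. Krt34, a type I keratin of the cortex, had the brightest probe set of its class, with a mean of 3.32, and exceeded the array median on 9 arrays. Its group means were close, at 3.44 ± 0.24 in wild-type vehicle, 3.08 ± 0.41 in wild-type IMQ, 3.33 ± 0.20 in knockout vehicle and 3.43 ± 0.20 in knockout IMQ ears (SD, n = 4). Krt32, a keratin of the shaft cuticle, averaged 3.08 and Krt35, which is made early in the matrix, averaged 2.89. Among type II keratins Krt86 averaged 3.18, Krt85, the early partner of Krt35, averaged 3.05 and Krt81, a cortex keratin, averaged 3.03. Krt85 stayed at or below the array median on all 16 arrays.

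The inner root sheath keratins, which form the rigid sheath that guides the growing shaft, were also dim. Krt73, a keratin of the sheath cuticle, averaged 3.39 and exceeded the array median on 11 arrays. Krt27 averaged 2.88 and Krt25 averaged 2.81, each above the array median on 2 arrays. Of the 8 sheath keratins 4 stayed at or below the array median on all 16 arrays.

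Among the KAP genes 37 of 56 never exceeded the array median, and 3 exceeded it on all 16 arrays. Krtap4-13, of the cysteine-rich KAP4 family, averaged 5.52, Krtap19-4, of the glycine- and tyrosine-rich KAP19 family, averaged 4.61 and Krtap5-1, of the cysteine-rich KAP5 family, averaged 4.52. Group means of Krtap4-13 were 5.70 ± 0.23 in wild-type vehicle, 5.30 ± 0.35 in wild-type IMQ, 5.67 ± 0.31 in knockout vehicle and 5.40 ± 0.06 in knockout IMQ ears (SD, n = 4). Members of a KAP family are near copies in tandem arrays, so their probe sets can share sequence and the reading of a single KAP gene is uncertain.

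Krt79, a type II keratin of the infundibulum and the sebaceous duct in mice, had the brightest probe set of the members, with a mean of 8.68 at the 98.4th percentile of genes. Krt75, the type II keratin of the companion layer between the outer and inner root sheaths, had a mean of 4.07 and exceeded the array median on 15 arrays.

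A feature that the choice of members did not use was the sequence just before the transcription start. RefSeq promoters of build GRCm38.p6 were matched for 66 members. In the 250 bases upstream, TATAAA on either strand, the letters of the TATA box, occurred in 53 of these (80.3%) and in 13.0% of all 27025 promoters of the same length. On the gene's own strand within 16 to 40 bases of the start it occurred in 39 members (59.1%), namely 31 of 50 KAP and 8 of 16 keratin promoters, and in 2.2% of all promoters. Lef1/Tcf letters on either strand, CTTTG and then any pair made of A and T, occurred in 22 members (33.3%) and in 14.9% of all promoters. AP-1 letters, TGANTCA, occurred in 10 members, all of them KAP genes (15.2%), and in 6.9% of all promoters. A motif of NF-kB occurred in 1 member (1.5%) and in 1.4% of all promoters. Overlaps between matches of different motifs were not removed. Neighbouring members arose by duplication, so their promoters are not independent.

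The last 60 bases before the start are shown for the 4 genes that passed a test below, then for 4 others chosen because they hold TATAAA, to set start sites with and without it side by side. They run 5′ to 3′ on the gene's strand, and capitals mark TATAAA. Krt79, Krt75 and Krt84 have no exact TATAAA in this window, though Krt75 and Krt84 hold cataaa, which differs only in its first letter. The others have TATAAA with its first base 27 to 32 bases upstream of the start. A match is a description of letters, not of a bound factor.
Krt79 (chr15:101940325-101940384, minus strand): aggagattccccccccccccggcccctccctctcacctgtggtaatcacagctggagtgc
Krt75 (chr15:101573905-101573964, minus strand): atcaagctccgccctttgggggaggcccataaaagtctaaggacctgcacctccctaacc
Krt84 (chr15:101532821-101532880, minus strand): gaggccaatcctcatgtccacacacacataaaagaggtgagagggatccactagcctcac
Krtap3-2 (chr11:99556854-99556913, minus strand): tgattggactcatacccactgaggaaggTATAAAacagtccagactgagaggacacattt
Krtap4-13 (chr11:99809897-99809956, minus strand): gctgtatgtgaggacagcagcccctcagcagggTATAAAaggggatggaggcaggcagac
Krtap5-1 (chr7:142297135-142297194, minus strand): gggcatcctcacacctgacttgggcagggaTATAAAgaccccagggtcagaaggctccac
Krt34 (chr11:100041555-100041614, minus strand): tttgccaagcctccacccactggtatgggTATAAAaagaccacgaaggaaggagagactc
Krt25 (chr11:99322952-99323011, minus strand): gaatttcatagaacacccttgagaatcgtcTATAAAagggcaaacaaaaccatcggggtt

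In wild-type ears IMQ lowered 2 of the 79 members, the infundibular Krt79 and the type II keratin Krt84, and raised none. This is 2.53% of the members against 3.64% of all genes called, of which 1.95% were higher and 1.69% lower. Changes were negative for 58 members and positive for 20 (25.3%, against 46.5% of all genes). The median change of the members was -0.08 on the log2 scale, against -0.015 over all genes. The median was -0.05 without wild-type vehicle array 4. At an unadjusted p under 0.05 there were 7 members (8.86%, against 14.3% of all genes). No inner root sheath keratin, no type I keratin and no KAP gene was called.

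Krt79 read 9.08, 8.95, 9.0 and 8.90 in wild-type vehicle ears and 8.67, 8.61, 8.61 and 8.27 in wild-type IMQ ears. Every IMQ ear lay below every vehicle ear. The fall was -0.44 ± 0.12 on the log2 scale (SE, n = 4 and 4, adjusted p = 0.0492). The call is marginal. It held in 3 of 16 fits that left out a single array, those without knockout IMQ array 4 or knockout vehicle array 3 or 4, with changes from -0.49 to -0.35 and adjusted p from 0.0338 to 0.175 over the 16 fits. It was also lost after median centring (adjusted p = 0.0789) and with wild-type ears alone in the fit (adjusted p = 0.0583).

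Krt84, a type II keratin best known from the tongue papillae in humans, read 3.49, 3.79, 3.25 and 2.97 in wild-type vehicle ears and 2.61, 2.75, 3.01 and 2.36 in wild-type IMQ ears. The groups overlapped by the lowest vehicle and the highest IMQ ear, and only 2 arrays, both vehicle, exceeded the array median. The fall was -0.69 ± 0.15 (SE, adjusted p = 0.0127) and may understate the change, since the IMQ ears lay near the floor of the array. It missed the threshold without wild-type vehicle array 2 (adjusted p = 0.0501), without wild-type IMQ array 4 (0.0568) and with wild-type ears alone (0.0624).

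The arrays of the groups did not overlap for 4 members in wild-type ears, all lower with IMQ (5.06%, against 5.17% of all genes). Besides Krt79 these were Krtap17-1 (-0.43 ± 0.14, adjusted p = 0.115), Krtap7-1 (-0.35 ± 0.11, adjusted p = 0.0875) and Krtap5-2 (-0.38 ± 0.39, adjusted p = 0.748), named after their values were seen. The shaft type I keratins changed by -0.37 to 0.11, with 95% intervals that together ran from -0.74 to 0.54. Sheath keratins changed by -0.31 to 0.22, with intervals from -1.10 to 0.67. Krtap4-13 read -0.41 ± 0.17 (adjusted p = 0.264).

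**Figure D2:**
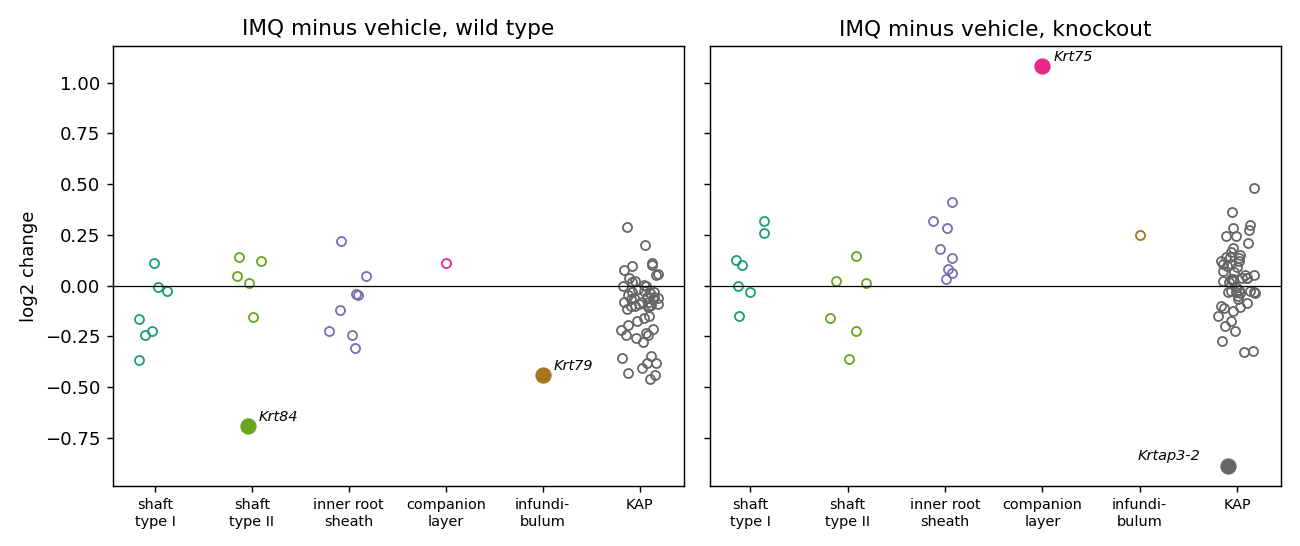
Log2 change with IMQ of the 79 genes by class, in wild-type ears on the left and knockout ears on the right. Each circle is a gene and filled, named circles passed the test at adjusted p under 0.05; Krt79 and Krt84 lie below 0 in wild-type ears, and Krt75 above and Krtap3-2 below 0 in knockout ears.

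In knockout ears IMQ raised Krt75 and lowered Krtap3-2, and no other member was called. The 2 calls are 2.53% of the members, where 15.0% of all genes were called, 8.07% higher and 6.91% lower. Changes were positive for 49 members (62%, against 46.8% of all genes) and negative for 30. The median change of the members was 0.04, against -0.02 over all genes. This median was 0.02 without knockout IMQ array 1, 0.08 without knockout IMQ array 3, and 0.07 without knockout vehicle array 3 or 4. At an unadjusted p under 0.05 there were 7 members (8.86%, against 25.0% of all genes).

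Krt75 read 3.56, 3.82, 3.14 and 3.51 in knockout vehicle ears and 4.75, 4.33, 4.47 and 4.81 in knockout IMQ ears. Every IMQ ear lay above every vehicle ear. The rise was 1.08 ± 0.16 (SE, 2.12-fold, adjusted p = 1.35e-04). It passed the test in all 16 fits without a single array, with changes from 0.96 to 1.19, and under the 9 other settings run, from 0.90 to 1.12. Vehicle ears lay near the array median, so the fold may understate the change. In wild-type ears Krt75 read 4.09, 3.93, 4.03 and 4.06 with vehicle and 4.26, 4.44, 3.67 and 4.19 with IMQ, overlapping groups that differed by 0.11 ± 0.16 (adjusted p = 0.844).

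The stress keratins Krt6a, Krt6b, Krt16 and Krt17, made by injured and hyperproliferative epidermis and by the companion layer, moved with Krt75 in knockout ears. All 4 rose with IMQ there, for example Krt6a by 3.46 ± 0.55 (adjusted p = 2.04e-04), Krt6b by 2.995 ± 0.53 and Krt17 by 2.21 ± 0.31. Of all genes 8.07% rose there. The mean level of the 4 genes spanned 6.28 to 9.63 in knockout vehicle ears and 10.6 to 10.8 in knockout IMQ ears. Among knockout vehicle ears, array 3 had the highest stress keratins (9.63) and the lowest Krt75 (3.14), and array 4 the lowest stress keratins (6.28) with Krt75 at 3.51. Between the genotypes with vehicle Krt6a was lower in the knockout (-2.70 ± 0.55, adjusted p = 0.0326), as were 0.349% of all genes. The part of these genes in the rise of Krt75 was not tested. Krt75 encodes a keratin of the Krt6 type, and whether its probe set reads any Krt6 transcript was not tested.

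Krtap3-2, of the cysteine-rich KAP3 family of the shaft cortex, read 4.64, 3.88, 3.48 and 4.59 in knockout vehicle ears and 3.33, 2.66, 3.39 and 3.66 in knockout IMQ ears. The groups overlapped by 1 ear on each side. The fall was -0.89 ± 0.26 (SE, adjusted p = 0.0227). It missed the threshold without knockout vehicle array 1 (-0.72, adjusted p = 0.0848), without knockout vehicle array 4 (-0.74, 0.0892), without knockout IMQ array 2 (-0.69, 0.0878) and with knockout ears alone (0.0571). Krtap3-2 also had among the largest spreads within groups, with a pooled SD of 0.42 where the median of the members was 0.25.

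Shaft type I keratins changed by -0.15 to 0.32 in knockout ears, with 95% intervals from -0.47 to 0.79, and type II keratins by -0.36 to 0.15, with intervals from -0.68 to 0.40. All 8 sheath keratins had a positive change, of 0.03 to 0.41, and none was called. The shared direction leaned partly on knockout IMQ array 1, where their mean was 3.10, against 2.65 to 2.87 in the rest of its group. Krt71 read 3.90 in that ear and at most 2.23 in the rest, below its knockout vehicle mean of 2.43. The arrays of 3 members did not overlap. Krt75 and Krt25, an inner root sheath keratin (0.41 ± 0.16, adjusted p = 0.114), were higher with IMQ, against 8.55% of all genes higher without overlap. Krt84 was lower (-0.36 ± 0.15, adjusted p = 0.137), 1.27% of the members against 7.43% of all genes. Krt79 read 8.51, 8.53, 8.67 and 8.21 in knockout vehicle ears and 8.77, 8.70, 8.89 and 8.56 in knockout IMQ ears, overlapping groups that differed by 0.25 ± 0.12 (adjusted p = 0.210).

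**Figure D3:**
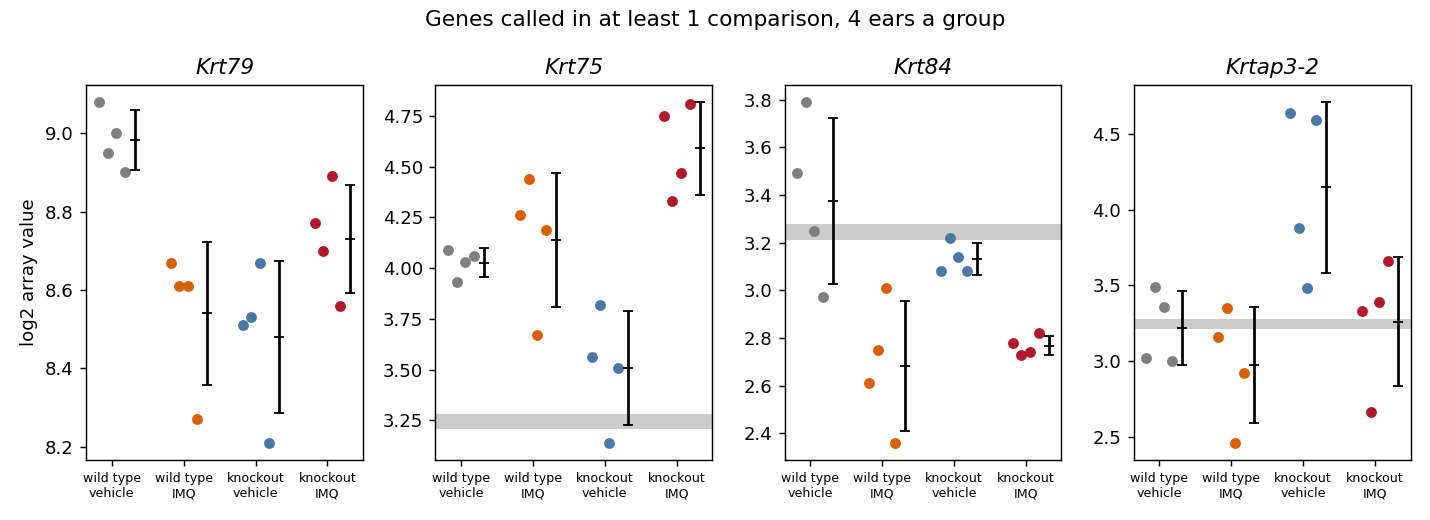
Log2 array values of the 4 genes called in at least 1 comparison, with a dot for each of the 4 ears of a group and the mean ± SD beside them. Each panel has its own axis, which does not start at 0, and the grey band marks the array medians; Krt75 is highest in knockout IMQ ears (4.33 to 4.81) and Krt79 in wild-type vehicle ears (8.90 to 9.08).

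Between genotypes no member was called, either with vehicle (limma, against 0.456% of all genes called, 0.107% higher and 0.349% lower in the knockout) or with IMQ (against 0.120%, 0.0194% higher and 0.100% lower). At an unadjusted p under 0.05 there were 9 members with vehicle (11.4%, against 12.2% of all genes) and 3 with IMQ (3.8%, against 8.24%). Array weights and eBayes with trend and robust options gave 0 and 1 calls with vehicle, and 0 and 0 with IMQ. In vehicle ears Krt79 differed by -0.50 ± 0.12 (adjusted p = 0.0723), every knockout ear lying below every wild-type ear, and it passed the test without knockout vehicle array 3 (-0.57, adjusted p = 0.0338) and under 3 of the 9 other settings. Krt75 differed by -0.52 ± 0.16 (adjusted p = 0.171), also without overlap. Krtap3-2 was 0.93 ± 0.26 in the other direction (adjusted p = 0.112), with overlapping groups. Non-overlap with a lower knockout was seen for 3 members (3.8%, against 3.57% of all genes), the third being Krtap31-1 (-0.38 ± 0.14, adjusted p = 0.237). In IMQ ears Krt75 differed by 0.45 ± 0.16 (adjusted p = 0.436) and Krt79 by 0.19 ± 0.12 (adjusted p = 0.732). The arrays of 1 member did not overlap with IMQ, Krtap7-1, which was higher in the knockout (0.34 ± 0.11, adjusted p = 0.339), against 2.26% of all genes higher without overlap.

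The difference between the IMQ effects, knockout minus wild type, was called for Krt75 (0.97 ± 0.23, adjusted p = 0.0467), 1.27% of the members against 1.25% of all genes, of which 0.530% were positive and 0.721% negative. The rise of Krt75 with IMQ was thus larger in the knockout by this test, and the knockout vehicle ears, which enter it, were the lowest of the 4 groups. The call held in 3 of 16 fits without a single array, those without array 2 of the wild-type IMQ, knockout vehicle or knockout IMQ group, with values from 0.81 to 1.07 and adjusted p from 0.0388 to 0.101. Without knockout vehicle arrays 3 and 4 it was 0.79 ± 0.24 (adjusted p = 0.149). For Krt79 the difference was 0.69 ± 0.17 (adjusted p = 0.0547). The median over the members was 0.13, against 0.01 over all genes, and 64 of 79 members (81%, against 51.3% of all genes) had a positive value. At an unadjusted p under 0.05 there were 9 members, all positive (11.4%, against 13.1% of all genes).

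Among other genes of hair formation, some regulators of the matrix and the hair cycle fell with IMQ in both genotypes. Of 23 such genes 4 fell and 0 rose in wild-type ears, with a median change of -0.19, where 1.69% of all genes fell. They included Dlx3, a homeobox regulator of differentiation in hair and epidermis (-1.08 ± 0.17, adjusted p = 7.33e-04), Foxq1, which is needed for the hair medulla in mice (-0.98 ± 0.18), and the signal Bmp4 (-0.82 ± 0.16). In knockout ears 8 fell and 2 rose, with a median of -0.17, where 6.91% of all genes fell and 8.07% rose. Nkd2, an inhibitor of Wnt signalling, fell by 1.10 on the log2 scale (SE 0.19), Foxq1 changed by -1.09 ± 0.18 and Bmp4 by -0.95 ± 0.16. No regulator was called between genotypes or in the difference between the effects. Hoxc13, a direct activator of hair keratin genes, stayed at or below the array median on all 16 arrays, with a mean of 2.65, and Foxn1, which acts upstream of hair keratins, averaged 5.18.

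Of 15 non-keratin genes of the shaft and the inner root sheath 1 fell in wild-type ears, Tchhl1, a relative of trichohyalin (-0.72 ± 0.17, adjusted p = 0.0171). Of all genes 1.69% fell there. In knockout ears 4 rose, led by Tgm3, a cross-linking transglutaminase of sheath and epidermis (1.45 ± 0.18, adjusted p = 1.96e-05), and Psors1c2 (0.91 ± 0.16). Of all genes 8.07% rose there. Each of the 4 that rose exceeded the array median on all 16 arrays. Tgm3 lay at the 98.9th percentile of genes and Psors1c2 at the 93.7th. Values of whole ear do not show whether they rose in the follicle or in other epidermis. Another 4 genes of the list stayed at or below it on all 16 arrays and were not called. Between the genotypes with vehicle Psors1c2 was lower in the knockout (-0.75 ± 0.16, adjusted p = 0.0447) and no other gene of the list was called. In the difference between the effects Tgm3 (1.13 ± 0.26, adjusted p = 0.0363) and Psors1c2 (1.04 ± 0.23, adjusted p = 0.0318) were called, both positive. Of all genes 0.349% were called lower in the knockout with vehicle, and 0.530% positive in the difference. Dsg4, the desmoglein of the shaft, and Padi3, a deiminase that modifies trichohyalin, stayed at or below the array median on all 16 arrays, with means of 2.49 and 2.42. Tchh, trichohyalin itself, averaged 3.74. Of 13 pigment genes of melanocytes, which colour the growing shaft, none was called in any of the 5 comparisons, and 6 stayed at or below the array median on all arrays. At an unadjusted p under 0.05 there were 2 such genes in wild-type and 1 in knockout ears for IMQ, 0 and 3 between genotypes with vehicle and IMQ, and 1 for the difference. The shares of all genes were 14.3% and 25.0% for IMQ in wild-type and knockout ears. They were 12.2% and 8.24% between genotypes with vehicle and IMQ, and 13.1% for the difference.

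The bulge and outer root sheath hold the follicle's stem cells. Of 13 genes listed for them 2 fell in wild-type ears, Krt15 (-1.75 ± 0.14) and Lhx2 (-0.78 ± 0.18), where 1.69% of all genes fell. In knockout ears 8 of the 13 fell, led by Krt15 (-3.23 ± 0.14), Lgr6 (-1.55 ± 0.16) and Lgr5 (-0.86 ± 0.20), where 6.91% of all genes fell. Values of whole ear do not show in which cells these genes fell. Of 11 interfollicular epidermis markers 6 also fell in knockout ears and 3 rose. Between the genotypes Krt15 was higher in the knockout with vehicle (0.77 ± 0.14, adjusted p = 0.0179), and Krt15 (-0.72 ± 0.14) and Lgr6 (-0.83 ± 0.16) were lower in it with IMQ (adjusted p = 0.0470 for both). The difference between the effects was called for Krt15 (-1.49 ± 0.19, adjusted p = 0.0042) and Lgr6 (-1.06 ± 0.22, adjusted p = 0.0281). Of all genes 0.107% were called higher in the knockout with vehicle, 0.100% lower with IMQ and 0.721% negative in the difference.

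Some markers of other cell types were called with IMQ, in 1 or both genotypes. In wild-type ears 6 of 9 myeloid markers and 2 of 8 adipocyte markers rose, while 5 of 11 interfollicular epidermis and 2 of 11 cartilage markers fell. Of all genes 1.95% rose and 1.69% fell in wild-type ears, and 8.07% rose and 6.91% fell in knockout ears. In knockout ears 6 of 9 myeloid markers rose and 7 of 11 cartilage markers fell, and of 11 interfollicular epidermis markers 6 fell and 3 rose. Of 11 dermal papilla markers 1 rose in wild-type ears, and 5 fell and 1 rose in knockout ears. Of 12 sebaceous gland markers 1 fell in wild-type ears, and 3 fell and 2 rose in knockout ears. Of 8 adipocyte markers 1 fell in knockout ears. The mean level of the myeloid markers was 5.46 to 5.98 in wild-type vehicle, 6.86 to 7.16 in wild-type IMQ, 5.12 to 5.74 in knockout vehicle and 6.78 to 7.31 in knockout IMQ ears, so that IMQ and vehicle ears did not overlap. The mean level of the skeletal muscle markers was 8.33 to 9.29 in knockout vehicle and 7.06 to 7.92 in knockout IMQ ears, without overlap, and 7.61 to 8.49 and 7.57 to 8.35 in the wild-type groups. All 16 fell in knockout ears and none was called in wild-type ears, where 1 had an unadjusted p under 0.05. With vehicle 1 of the 16 was called higher in the knockout (0.107% of all genes). In the difference between the effects 11 were called, all negative (0.721% of all genes). At an unadjusted p under 0.05 all 16 were higher in the knockout with vehicle and 12 were lower in it with IMQ. The shares of all genes in either direction were 12.2% and 8.24%. The part of tissue composition in the values of the members was not tested.

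**Figure D4:**
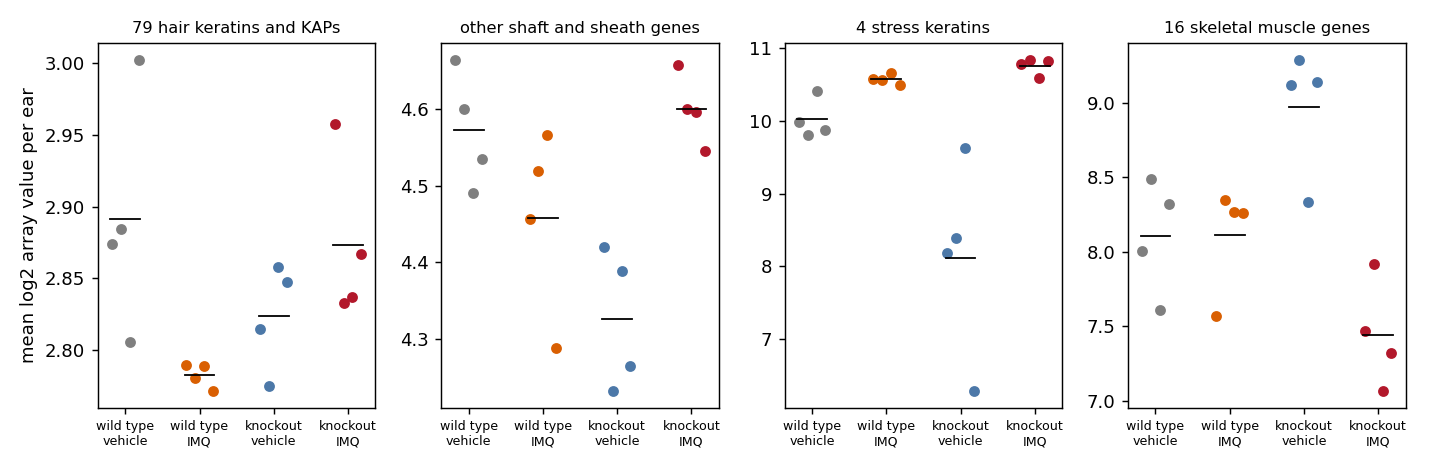
Mean log2 array value of 4 gene lists in each ear, with a dot per ear and a line at the group mean, each panel on its own axis that does not start at 0. The mean of the 79 members spans 2.77 to 3.0 over all ears, while the mean of 4 stress keratins spans 6.28 to 10.8.

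The mean over the 79 members stayed within a narrow range, with every wild-type vehicle ear above every wild-type IMQ ear. It was 2.81 to 3.0 in wild-type vehicle, 2.77 to 2.79 in wild-type IMQ, 2.78 to 2.86 in knockout vehicle and 2.83 to 2.96 in knockout IMQ ears. The gap was small, from 2.790 in the highest wild-type IMQ ear to 2.805 in the lowest wild-type vehicle ear. The lower quartiles of the arrays themselves spanned 2.50 to 2.60. Wild-type vehicle array 4 was the highest of its group for 36 of the 79 members (45.6%), where it was highest for 25.8% of all genes and for 29.1% of genes with a mean below the array medians. Knockout IMQ array 1 was the highest of its group for 30 members (38.0%), against 23.2% and 22.0%.

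For the mean over the members no ear stood far from the other 3 of its group by Dixon's ratio (0.598 and 0.729 for these ears, where 0.829 is critical).

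The inner root sheath keratins differed in how they read in these ears. Krt71, the type II keratin that pairs with the type I sheath keratins, read 3.43 in wild-type vehicle array 4 and 1.92 to 2.58 in the other 3 ears of that group. In knockout IMQ array 1 it read 3.90, and 2.01 to 2.23 in the other 3. Krt25 read 3.38 and 3.42 in these ears, against at most 3.05 and 2.92 in the rest of their groups. Krt27 read 3.76 in wild-type vehicle array 4, above the 2.35 to 2.87 of its group, and 3.10 in knockout IMQ array 1, close to the 3.02 of array 3. Of the 8 sheath keratins, wild-type vehicle array 4 was highest for 5 and knockout IMQ array 1 for 4. Others did not share this. Krt26 was lowest of its group in both ears, at 2.27 and 2.34, close to the next values of 2.35 and 2.36. Krt74 was lowest of its group in wild-type vehicle array 4, at 2.44, close to the next value of 2.47. Krt71 had a pooled SD within groups of 0.64. The 5 other members with the largest spread were Krtap5-2 (0.66), Krtap22-2 (0.44), Krtap3-2 (0.42), Krt33a, a shaft type I keratin (0.42), and Krtap4-2 (0.41).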

How the data were processed

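Total RNA of 16 ears was hybridised to Affymetrix Mouse Gene ST 2.1 arrays. The values, on a log2 scale as deposited, cover 41345 transcript clusters, for which Affymetrix Expression Console is named in the submitters' notes. How probes were summarised, with which software version and build, is not given in the sources used here. Symbols came from the authors' deposited sheet, which names 32471 clusters. Where clusters shared a symbol, the brightest on average was kept, which gave 30943 genes; among the members only Krt36 had more than 1 cluster. Of the 79 members 77 matched the RefSeq table by symbol, and RefSeq sequences are from GRCm38.p6. With no protein sequences at hand, the planned split of KAP genes by composition was not used.

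A model of 4 group means was fitted by lmFit to all genes and all 16 arrays, with spread moderated by eBayes (residual degrees of freedom 12, prior 6.18), using limma 3.58.1 under R 4.3.3, and p-values were adjusted over all 30943 genes by the Benjamini-Hochberg method in each of 5 contrasts. Genes with adjusted p under 0.05 were called. Errors after ± are SE for changes and SD for levels, and intervals are 95%. The fit was also run on simulated data with errors independent between genes, which real arrays need not have, and no result here rests on it. Precision is limited by the number of arrays. Members and lists were chosen with earlier results of these data known. Named members are those called in a contrast, the 3 brightest of each class and the 6 with the largest spread within groups; from other lists at most 3 called genes per contrast are named, and Hoxc13, Foxn1, Dsg4, Padi3 and Tchh were added for their role. Ears sharing an array number showed little joint deviation (mean correlation of deviations -0.0022 to 0.026). Over mostly dim genes this cannot tell whether the number pairs ears, which the labels do not say.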

Additional observations from a re-analysis of the deposited data

Results flagged for a closer look

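Krt75 was marked because its change with IMQ differed between the genotypes in a test of the difference itself (0.97 ± 0.23, limma adjusted p = 0.0467). A single ear standing far from the other 3 of its group, by Dixon's ratio, was found in 5 of the 88 sets of 4 ears examined. The sets were the named members and the mean over all members in each group. Members picked for a large spread within groups, among them Krt71, Krtap22-2 and Krtap5-2, were included. The usual chance rate of about 1 in 20 is therefore no yardstick for this count. Krt71 read 3.90 and Krtap22-2 read 3.82 in knockout IMQ array 1, where the other ears reached at most 2.23 and 2.36. Krtap5-2 read 3.47 in wild-type vehicle array 2, above 2.81 in the next ear. Krt86 read 2.83 in wild-type vehicle array 3, below 3.06 in the next ear. Krt79 read 8.27 in wild-type IMQ array 4, below 8.61 in the next ear.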

How the results depend on the processing

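The number of members called moved by at most 2 genes under the settings tried, and the changes of Krt75, Krt79, Krt84 and Krtap3-2 kept their direction where called. For IMQ in wild-type ears 2 members were called, and 1 with genes below the array median removed, 1 after median centring and 0 with the compared groups alone; without single arrays the number was 0 to 2. For IMQ in knockout ears 2 were called, and 1 with the compared groups alone; without single arrays it was 1 to 4, the 4 without knockout vehicle array 3. For the genotypes with vehicle 0 were called, and 1, Krt79, with the dim filter, with trend and robust options and with the array number as a block; without single arrays it was 0 to 2, the 2 being Krt79 and Krtap3-2 without knockout vehicle array 3. With IMQ it was 0 under every setting run. For the difference between the effects 1 was called, and 2, Krt75 and Krt79, with the dim filter, array weights, trend and robust options and the array number as a replicate block, but 0 without knockout vehicle arrays 3 and 4; without single arrays it was 0 to 1, the call being Krt79 and not Krt75 without knockout vehicle array 3. For this difference a fit to the compared groups alone is the main one, since it needs all 4. The median change of the members was -0.08 with IMQ in wild-type ears, and -0.05 after median centring or quantile normalization; in knockout ears it was 0.04, and 0.07 and 0.06 with these, but -0.025 over the members that pass the dim filter. With vehicle the median between genotypes was -0.08, and -0.03 without wild-type vehicle array 4. The array number as a block left the calls for IMQ at 2 and 2. The cause of these changes was not tested. Signals near the floor of the array limit what can be said of 61 members that fail the dim filter.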
